A study of Mus musculus with 9 samples.

Results

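Ventricles of newborn mice were set against ventricles of adult mice, and the difference was described by gene family across the transcriptome, beyond the cell cycle, extracellular matrix and respiratory chain genes. A gene entered when 3 or more of the 6 libraries reached 10 normalized counts, which left 13398 of 24391 genes, and the libraries were 6 of the 9 in the series. The newborn group held 3 RNA sequencing libraries of cardiac ventricle from wild-type C57BL/6 mice at postnatal day 6 (P6). The adult control group held 3 libraries from C57BL/6 mice aged 15 weeks that carried the alphaMHC Cre transgene and had no altered beta-catenin gene. The alphaMHC promoter drives Cre in cardiomyocytes, and the P6 mice are labelled wild type. The adult libraries are marked in the labels as a re-analysis, so age, Cre genotype and library set cannot be told apart. Nothing in the labels ties a library to an animal of its own, so p-values measure only the spread between libraries, which may be technical. The third group of the series, adults with stabilized beta-catenin, was used only to fit all 9 libraries together as an alternative.

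After birth the mouse heart turns from growth by cell division to growth by enlargement of its cells. Over the first weeks its cardiomyocytes build up mitochondria, change their main fuel from carbohydrate to fatty acids, exchange fetal for adult isoforms of many proteins and take on the electrical properties of adult muscle. The other cells of the wall, such as fibroblasts, endothelial cells and macrophages, also change in number and state over this time. In bulk tissue, fewer cells of a type and less RNA per cell cannot be told apart.

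Reads assigned to genes numbered 7467551 to 7913057 per P6 library and 15234366 to 21568022 per adult control library, with 16028 to 16162 and 15905 to 16116 genes detected. The first principal component of log2 values took 86.7% of the variance and separated the 2 ages. The second took 7.14% and set adult control library 1 apart from adult control libraries 2 and 3. P6 library 3 differed from the other P6 libraries in the sex-linked genes, with 14.9 normalized counts of Xist and 811 of Ddx3y, against 24100.4 and 19551 of Xist and 0 of Ddx3y in P6 libraries 1 and 2. Adult control libraries had 1665 to 7920.1 of Xist and at most 0.833 of Ddx3y. Rn45s, the 45S precursor of ribosomal RNA, held 2.56% to 8.40% of P6 reads and 1.87% to 6.94% of adult control reads. The 10 cardiomyocyte markers were all detected, and their summed level was 1424872 to 1464927 normalized counts at P6 and 1981388 to 2869604 in adult controls. The 4 atrial markers (Myl7, Sln, Nppa and Myl4) summed to 1099 to 1298 normalized counts at P6 and 1681 to 7443 in adult controls. The 5 thymus markers, of which 1 passed the filter, summed to 116 to 166 normalized counts at P6 and 26.3 to 39.2 in adult controls. Rag2 and Ptcra were at 0 at P6, and Rag1, Rag2 and Dntt were at 0 in adult controls.

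Of the 13398 genes tested, 4182 (31.2%) were higher at P6 and 4198 (31.3%) were lower, 62.5% together (limma on log2 of the normalized count + 1, Benjamini-Hochberg adjusted p under 0.05). Fold changes below are P6 over adult control on that log2 scale, which understates the change of low genes. The median log2 fold change over all genes was 0.02, and 90% of genes lay between -1.81 and 2.38. A log2 fold change of at least 1 in size was reached by 2375 (17.7%) of the higher and 2069 (15.4%) of the lower genes, one of at least 2 by 902 (6.73%) and 530 (3.96%), and one of at least 3 by 413 (3.08%) and 187 (1.4%). The groups did not overlap in 70.3% of genes. The split depended on the normalization: when each library was scaled to its total reads instead, the median of all genes moved to 0.44, and 6389 genes were higher and 2316 lower. Of the genes tested, 402 reached 10 counts in P6 libraries alone and 182 in adult control libraries alone, and such genes had to differ. Fold changes, calls, ratios, floors and intervals of those named below are descriptions only. Through P6 these genes are Dlk1, Igf2bp1, Igf2bp3, Kif2c, Mir1a-1, Mir208a, Rpl11, S100a8, S100a9, Sox11, Tgif2, Tnni1 and Zfp618. Through adult controls they are Bdh1, Cxcl14, Ifi205, Kcnv2, Klhl34 and Scn4b. With 1 library left out, the filter was applied again and still asked for 3 libraries. Genes that had passed through the reduced group alone then left the test, so counts without 1 library are over fewer genes.

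In the 69 gene families examined, which held 2761 of the tested genes, the share called in each direction is read against those 31.2% and 31.3%. Family medians were negative in 37 and positive in 32. Square brackets after a family's counts give the numbers higher and lower under total-count scaling, where either moved by over 1.5 times or to or from 0. In some families these numbers are given in words instead. Under total-count scaling every family median moved up by 0.39 to 0.43, so 20 of the 37 negative medians kept their sign, and the 32 positive ones all did. Branched-chain amino acid breakdown, complement and antioxidant genes had the lowest medians among families of over 10 genes, and fetal RNA-binding regulators, cell junction and Notch genes the highest. Without genes that passed the filter through 1 group alone, these medians were -2.01, -1.53 and -1.19, and 1.34, 0.94 and 0.83, in that order. The cell junction family included 22 gamma protocadherins, whose transcripts share exons.

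**Figure D1:**
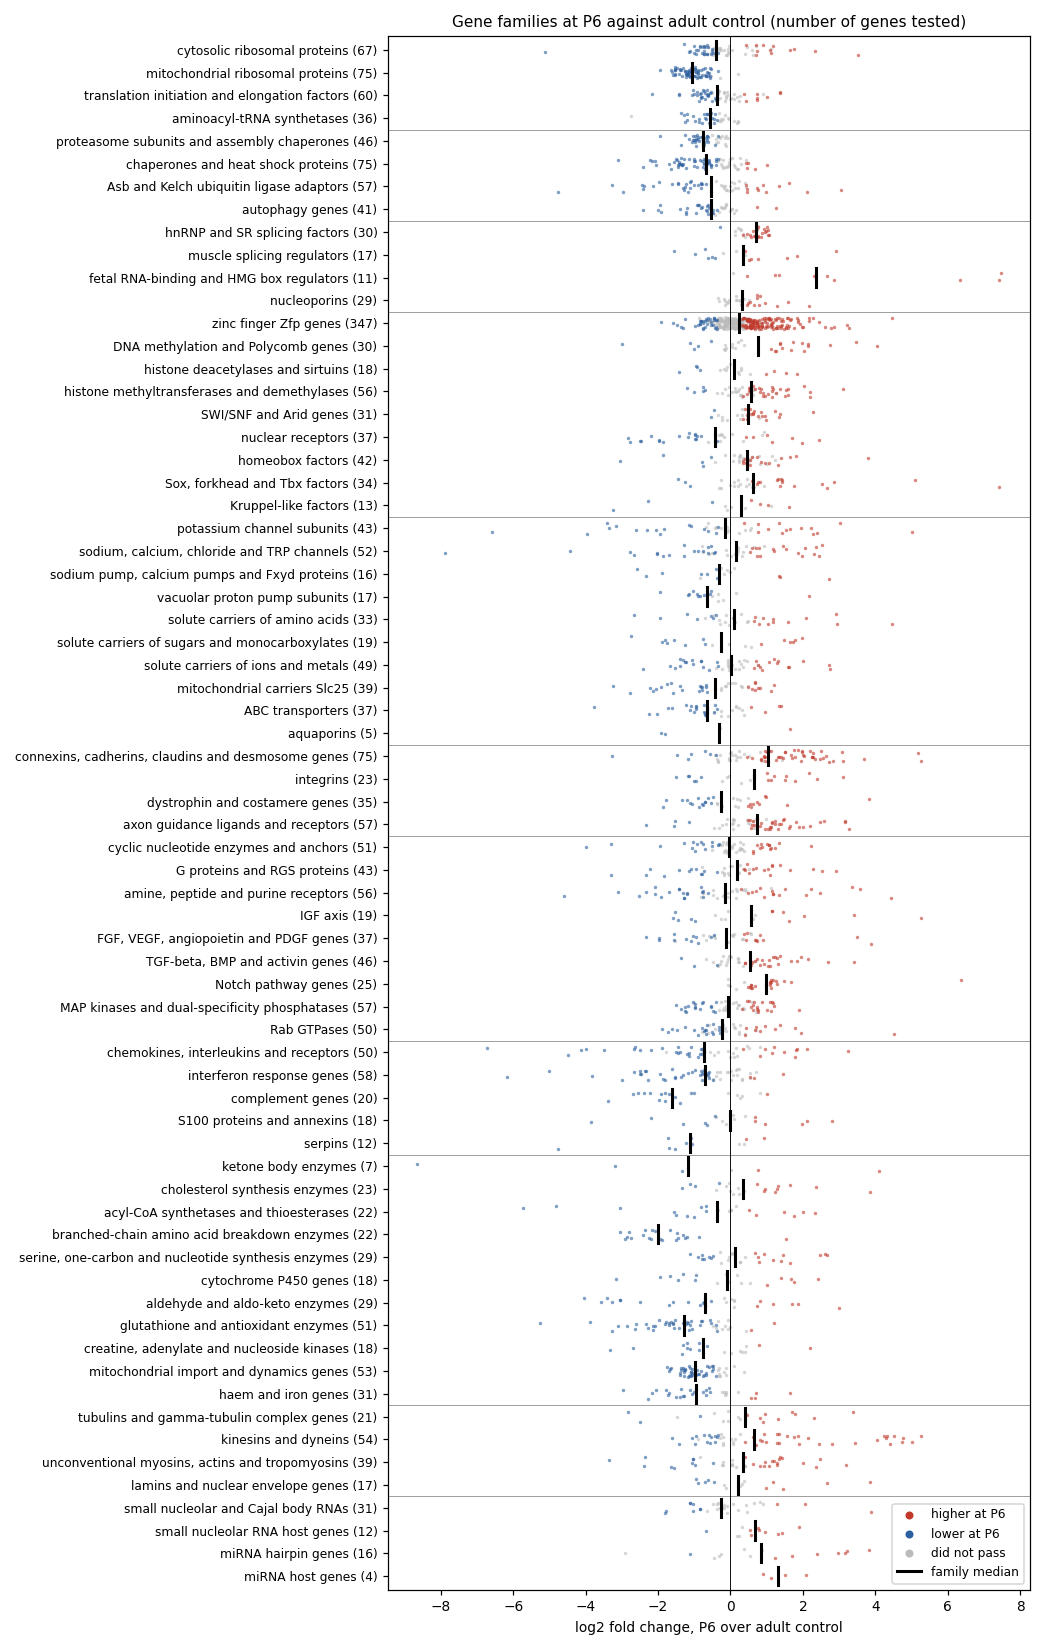
Log2 fold change of P6 over adult control (x axis) for every tested gene of the families shown (rows, with the number tested), coloured by call, with the family median as a black line. Mitochondrial ribosomal, proteasome and mitochondrial import genes lie mostly below 0, with medians of -1.08, -0.75 and -0.97, while channel and receptor families spread widely on both sides.

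The protein synthesis machinery was lower at P6 in its mitochondrial part, and in its cytosolic part the direction depended on the scaling. The 75 mitochondrial ribosomal protein genes split into 72 lower and 0 higher (median of the log2 fold changes -1.08, with 49 lower and 1 higher under total-count scaling). Mrpl30, a protein of the large mitochondrial subunit, had 371, 478 and 457 normalized counts in the P6 libraries, against 2186, 1325 and 1658 in the adult control libraries (log2 fold change -1.96, SE 0.19, adjusted p = 4.04e-05). Every P6 library lay below every adult control library, which the rule for naming this gene asked for. Of 36 aminoacyl-tRNA synthetases, the enzymes that charge tRNAs, 23 were lower and 0 higher (median -0.56), but 9 lower and 5 higher under total-count scaling. The mitochondrial enzyme genes Cars2 (-1.36) and Yars2 (-1.25) and the cytosolic Dars (-1.28) and Kars (-1.04) were among those lower. Lars2 did not pass and varied within both groups, with 3329, 546 and 29137 normalized counts in the P6 libraries, against 9419, 47703 and 35145 in the adult control libraries. Rn45s had 400445, 276657 and 957106 in the same P6 libraries and 254742, 1068899 and 596369.8 in the same adult control libraries, and its part in the Lars2 values was not tested.

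Of 67 cytosolic ribosomal protein genes, 12 were higher and 27 lower [14 and 6] (median -0.41), and the median turned to 0.02 under total-count scaling. Many of these genes have near-identical pseudogene copies, and how reads were shared among copies is not given in the sources used here, so single values are uncertain. Several higher members had few counts, such as Rpl11 (13.3 at P6 and 0.278 in adult controls), and the number higher was 5 to 6 without any 1 P6 library and 4 among genes with at least 50 counts. Rpl3l, which replaces Rpl3 in striated muscle ribosomes, had 71.3, 66.5 and 60.9 normalized counts in the P6 libraries, against 2541, 2480.0 and 2060.1 in the adult control libraries (log2 fold change -5.13, SE 0.14, adjusted p = 1.63e-07), the largest fall of the family. Of 60 translation initiation and elongation factors, 8 were higher and 29 lower [17 and 9] (median -0.38, 0.05 under total-count scaling; 5, 3, 3 and 5 higher without P6 libraries 1, 2 and 3 and adult control library 3 in turn). Eif4e, the cap-binding factor (-1.43), and Eef1d, an exchange factor of elongation (-1.06), were lower, while Eif2ak4, the kinase that senses uncharged tRNA, was higher, at 423 ± 47.7 normalized counts at P6 and 162 ± 12.7 in adult controls (SD, n = 3 each; log2 fold change 1.37, SE 0.14, adjusted p = 5.48e-05). Eif4ebp1, a repressor of cap-dependent initiation, had a log2 fold change of -0.02 and did not pass.

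Genes that fold, recycle and degrade proteins were more often lower than higher at P6. Of 46 proteasome subunit and assembly genes, 34 were lower and 0 higher (median -0.75, 14 lower and 1 higher under total-count scaling). Psme4, the PA200 activator that caps the proteasome, showed the largest fall, with 2082, 2266 and 2251 normalized counts in the P6 libraries, against 7045, 7867 and 10929.9 in the adult control libraries (log2 fold change -1.94, SE 0.17, adjusted p = 2.31e-05). The immunoproteasome subunits Psmb8 (-1.25) and Psmb9 (-1.37) were lower, and so was Psmb7, a constitutive catalytic subunit (-1.14). Of 75 chaperones and heat shock proteins, 50 were lower and 5 higher (median -0.66, 28 and 14 under total-count scaling; 2 to 3 higher without any 1 P6 library and 2 without adult control library 3). Hspb8, a small heat shock protein of muscle that works in chaperone-assisted autophagy, had 877, 991 and 958 normalized counts in the P6 libraries, against 10058, 6885 and 7809.8 in the adult control libraries (log2 fold change -3.11, SE 0.15, adjusted p = 1.57e-06). The small heat shock genes Cryab (-2.23) and Hspb6 (-1.69) were also lower, whereas Hspa12a, a distant Hsp70 relative, was higher (1.01).

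Ubiquitin ligase adaptors of the Asb and Kelch groups split, with 11 of 57 higher and 28 lower [18 and 24] (median -0.53; 7 higher without P6 library 1 or 2). Klhl34 had 2.74, 5.78 and 4.46 normalized counts in the P6 libraries, against 97.5, 153 and 177 in the adult control libraries. Asb14 (-2.97), Asb15 (-2.45), Asb5 (-2.38), Asb11 (-2.13) and Klhl40 (-1.30), genes known from striated muscle, were lower. Klhl3, an adaptor of the cullin 3 ligase that controls WNK kinases in the kidney, was higher (1.62). Of 41 autophagy genes, 25 were lower and 2 higher (median -0.53, 13 and 6 under total-count scaling). These included the cargo receptors Sqstm1 (-1.91) and Optn (-1.93), the Atg8 homologues Gabarapl1 (-1.99) and Map1lc3a (-1.23), and the mitophagy receptor gene Bnip3, which had 115 ± 11.9 normalized counts at P6 and 631 ± 175 in adult controls (log2 fold change -2.41, SE 0.22, adjusted p = 2.65e-05). Ambra1 (0.73) and Atg16l2 (1.24) were the 2 that were higher. Of 17 vacuolar proton pump subunits, which acidify lysosomes, 11 were lower and 1 higher (median -0.65, 5 and 2 under total-count scaling), the exception being Atp6v1g2 (2.17).

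Genes that process and export RNA were more often higher than lower at P6. Of 30 hnRNP and SR splicing factors, 20 were higher and 1 lower [29 and 0] (median 0.71), and the changes were small, with Srsf9 the largest rise at 1.06. Hnrnpc, the 1 lower gene (-0.29, adjusted p = 0.0468), lost its call in 9 of the alternative settings and reversed under total-count scaling. Among 17 regulators of muscle splicing, 7 were higher and 6 lower [10 and 2]. Mbnl3 had 295, 332 and 272 normalized counts in the P6 libraries, against 19.998, 49.5 and 59.8 in the adult control libraries (log2 fold change 2.90, SE 0.35, adjusted p = 0.000148), while its relatives Mbnl1 (-0.98) and Mbnl2 (-0.72) were lower. Ptbp1, a repressor of tissue-specific exons, was higher (1.55), and Rbfox1, an activator of muscle and neuronal exons, was lower, at 314 ± 39.5 normalized counts at P6 and 924 ± 68.1 in adult controls (log2 fold change -1.56, SE 0.14, adjusted p = 2.3e-05). Rbfox2 was higher (0.56). Of 29 nucleoporin genes, 13 were higher and 0 lower (median 0.32, 23 higher under total-count scaling, 8 and 7 without P6 libraries 1 and 3), led by Nup210 (2.18).

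Fetal RNA-binding and HMG box regulators were the family with the highest median, 2.37, with 10 of 11 higher and 0 lower. The members Igf2bp1, Igf2bp3, Lin28b and Sox11 passed the filter through P6 libraries alone, and without them 6 of 7 were higher, with a median of 1.34. Igf2bp3 and Sox11 were nearly absent from adult controls, where each had 2 reads in all. Set against its 516 reads at P6, Igf2bp3 had a P6 to adult ratio of 441 (exact 95% interval of the pooled counts 121 to 3648). Sox11, with 510 reads, had one of 436 (120.0 to 3606). These intervals leave out the spread between libraries. Igf2bp1, an RNA-binding protein of the same family, had 169 reads at P6 and 0 in adult controls. Taking 3 reads over the adult group as the floor, it was at least 96.2-fold higher. The number of the family higher was 5 when any 1 P6 library was left out, but the members that passed through P6 alone could not enter those fits.

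Families of chromatin genes held more higher than lower members at P6, with exceptions within each. Of 56 histone methyltransferase and demethylase genes, 31 were higher and 5 lower [44 and 2] (median 0.55; 8 lower without adult control library 1), and of 31 SWI/SNF and Arid genes, 20 were higher and 2 lower [25 and 0] (median 0.49, 12 and 13 higher without P6 libraries 1 and 3). Dot1l, the methyltransferase of histone H3 lysine 79, had 2593, 2182 and 2449 normalized counts in the P6 libraries, against 178, 399 and 295 in the adult control libraries (log2 fold change 3.12, SE 0.26, adjusted p = 1.6e-05). Kdm6b (2.19) and Kmt2b (1.503) were higher, while Smyd1, a muscle methyltransferase that acts on sarcomere assembly, was lower (-0.76). Of 30 DNA methylation and Polycomb genes, 15 were higher and 5 lower (median 0.75). The 3 Tet genes, which oxidize methylcytosine, were all higher (Tet1 2.76, Tet2 1.66, Tet3 2.14), and so were Dnmt1 (1.71), Dnmt3a (1.38) and Uhrf1 (4.04), which guides Dnmt1 to replicating DNA. Cbx7, a chromodomain subunit of Polycomb complex 1, went the other way, with 37.0, 44.8 and 49.0 normalized counts in the P6 libraries, against 367, 381 and 320.4 in the adult control libraries (log2 fold change -3.01, SE 0.17, adjusted p = 2.49e-06). Cbx2 (1.42), which holds the same place in the complex, was higher.

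Of 347 Zfp and Zkscan zinc finger genes, 133 were higher and 35 lower (median 0.25), and 214 and 9 under total-count scaling. Zfp618 (4.46), Zfp711 (3.22) and Zfp57, which keeps imprints methylated (3.27), were among the large rises, and Zfp106, which acts in muscle and motor neurons, was the largest fall of the abundant members, at 5272 ± 171 normalized counts at P6 and 20343 ± 5434 in adult controls (log2 fold change -1.91, SE 0.21, adjusted p = 7.59e-05). Histone deacetylases and sirtuins split, 4 of 18 being higher and 4 lower [10 and 4] (8 higher without adult control library 1). Hdac7, a class II deacetylase that acts in endothelium (1.82), was higher, and the mitochondrial sirtuins Sirt3 (-0.94) and Sirt5 (-1.41) were lower. Of 17 lamin and nuclear envelope genes, 5 were higher and 5 lower [10 and 2] (8 higher without adult control library 1), with Lmnb1 at 3.85 and Sun2 at -0.94.

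Among DNA-binding factors, nuclear receptors were more often lower and developmental factors more often higher. Of 37 nuclear receptor genes, 7 were higher and 20 lower (median -0.44, 10 and 16 under total-count scaling; 4 higher without P6 library 1 or 2). Rxrg, a partner receptor of muscle (-2.83), Ppara, the lipid sensor of oxidative tissue (-1.98), Thrb (-2.50) and the clock repressor Nr1d2 (-1.41) were lower, while Thra (1.00) and the retinoic acid receptor Rara (1.70) were higher. Of 42 homeobox factors, 17 were higher and 5 lower [28 and 2] (median 0.47; 9, 10 and 11 higher without P6 libraries 1, 2 and 3), and of 34 Sox, forkhead and Tbx factors, 16 were higher and 3 lower [27 and 2] (median 0.63; 6 lower without adult control library 1). Tgif2, a repressor in TGF-beta and retinoid signalling (3.79), Sox9 (2.52) and Sox4 (2.86) were higher, and Six4 (-1.87) and Foxo3 (-1.45) were lower. Of 13 Kruppel-like factors, 4 were higher and 3 lower [7 and 2] (5 lower without adult control library 1). The 2 factors known as targets of glucocorticoids, Klf15 and Klf9, stood out. Klf15 had 98.7, 127 and 183 normalized counts in the P6 libraries, against 1204, 1320.4 and 1252 in the adult control libraries (log2 fold change -3.24, SE 0.21, adjusted p = 4.56e-06), and Klf9 had 673 ± 39.4 normalized counts at P6 and 3275 ± 230.0 in adult controls (log2 fold change -2.28, SE 0.11, adjusted p = 1.6e-06). For both genes, every P6 library lay below every adult control library, which for Klf15 was a condition of naming it.

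**Figure D2:**
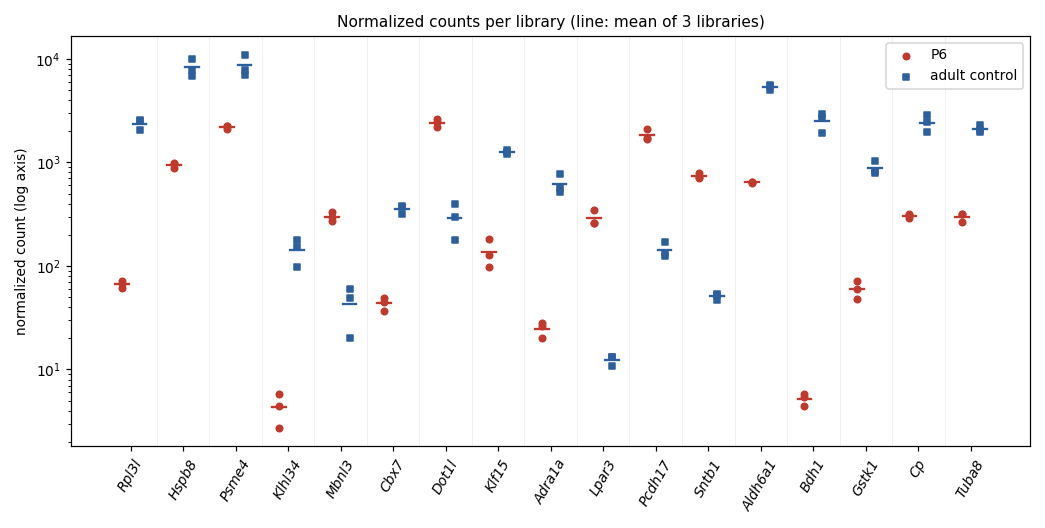
Normalized counts (log axis) of 17 genes from different families in each P6 library (circles) and each adult control library (squares), with the mean of each group as a line. The groups do not overlap for any of them, but most were named under a rule that asked for this. Over all genes tested, 70.3% did not overlap. Bdh1, Rpl3l and Klhl34 have the widest gaps below adult controls, and Lpar3 and Sntb1 the widest above. Bdh1 and Klhl34 passed the filter through adult controls alone, so they had to differ.

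Among metabolic families outside the respiratory chain, those of branched-chain amino acid breakdown, antioxidant and mitochondrial import genes held mostly lower members at P6, while cholesterol synthesis genes were more often higher. These are libraries in which the summed cardiomyocyte markers given above were also lower; the part of cardiomyocyte content was not tested. Of 22 genes for the breakdown of branched-chain amino acids, 21 were lower and 1 higher (median -2.01, 21 and 1 under total-count scaling). Aldh6a1, the methylmalonate semialdehyde dehydrogenase of valine breakdown, had 646, 634 and 646 normalized counts in the P6 libraries, against 5628, 4996 and 5506 in the adult control libraries (log2 fold change -3.06, SE 0.11, adjusted p = 4.85e-07). Both E1 subunits of the branched-chain dehydrogenase complex (Bckdha -2.79, Bckdhb -2.74), its activating phosphatase Ppm1k (-2.90), and the next step for leucine, Ivd (-2.87), were lower. The aminotransferase that opens the pathway came in 2 forms with opposite changes, the cytosolic Bcat1 at 1.53 and the mitochondrial Bcat2 at -1.68.

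Ketone body genes also divided, with 2 of 7 higher and 4 lower. Bdh1 passed the filter through adult controls alone, and without it 2 of 6 were higher and 3 lower. Bdh1, which uses beta-hydroxybutyrate, had 5.48, 5.78 and 4.46 normalized counts in the P6 libraries, against 2696, 2927 and 1932 in the adult control libraries (log2 fold change -8.64). Oxct1, the enzyme that commits ketone bodies to oxidation, was lower, at 2675 ± 163 normalized counts at P6 and 24572 ± 2671 in adult controls. Aacs, the cytosolic synthetase that activates acetoacetate, was higher (0.76). Among 22 acyl-CoA synthetases and thioesterases, 6 were higher and 10 lower (median -0.36, 0.06 under total-count scaling), with the mitochondrial acetyl-CoA synthetase Acss1 at -3.04 and the cytosolic thioesterase Acot1 at 2.35. Of 23 cholesterol synthesis and uptake genes, 9 were higher and 4 lower [14 and 3] (median 0.35). Sqle, squalene epoxidase (3.84), and the controlling factor Srebf2 (1.32) were higher, and Fdft1, squalene synthase, was lower (-1.33).

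Of 51 glutathione and antioxidant genes, 40 were lower and 2 higher (median -1.30, 33 and 4 under total-count scaling). Gstk1, a glutathione transferase of mitochondria and peroxisomes, had 48.0, 70.8 and 59.4 normalized counts in the P6 libraries, against 1033, 795 and 833 in the adult control libraries (log2 fold change -3.89, SE 0.18, adjusted p = 1.22e-06). Gstm1 (-3.26), Nqo1 (-2.63), the mitochondrial peroxidase Prdx3 (-2.15), and Sod2 (-1.57) were lower as well. The 2 that were higher, Prdx4 (0.57) and Gpx7 (1.21), act in the endoplasmic reticulum. Of 29 aldehyde and aldo-keto enzymes, 17 were lower and 6 higher (median -0.71, 10 and 7 under total-count scaling). Aldh2 (-2.51) and Aldh4a1 (-3.28) were lower, but 2 retinoid-related members moved in opposite directions, Aldh1a1 at -3.40 and Aldh1a2 at 2.99. Cytochrome P450 genes had 5 of 18 higher and 7 lower (3 higher without any 1 P6 library). Cyp26b1, which degrades retinoic acid, was lower (-3.17), although 1 adult library supplied most of its adult reads, with 13.7, 30.4 and 19.3 normalized counts in the P6 libraries, against 111, 589 and 103 in the adult control libraries.

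The 53 mitochondrial import and dynamics genes held 43 lower and 0 higher members (median -0.97, 29 and 2 under total-count scaling). They included the fusion genes Opa1 (-1.28), Mfn1 (-1.25) and Mfn2 (-1.10), and Oma1, the protease that cleaves Opa1 (-1.75). Of 31 haem and iron genes, 21 were lower and 4 higher (median -0.94). Cp, the ferroxidase ceruloplasmin, had 307, 318 and 289.6 normalized counts in the P6 libraries, against 2442, 1949 and 2853 in the adult control libraries (log2 fold change -2.97, SE 0.15, adjusted p = 1.69e-06). Ferritin heavy chain Fth1 (-1.74), transferrin Trf (-2.28) and the iron exporter Slc40a1 (-1.39) were lower, and the transferrin receptor Tfrc was higher, at 4442 ± 789 normalized counts at P6 and 1494 ± 681 in adult controls (log2 fold change 1.65, SE 0.28, adjusted p = 0.000961). Erythroid markers summed to 754 to 959 normalized counts at P6 and 465 to 776 in adult controls, and 4 haemoglobin genes among them are listed at 0 in all 6 libraries. Of 29 serine, one-carbon and nucleotide synthesis genes, 11 were higher and 8 lower [16 and 2]. The serine pathway gene Psat1 (2.48) and Tyms, thymidylate synthase (2.67), were higher, while the purine synthesis genes Gart (-0.77) and Paics (-0.90) were lower. Among 18 creatine, adenylate and nucleoside kinase genes, 2 were higher and 10 lower [6 and 7], the sarcomeric mitochondrial creatine kinase Ckmt2 (-3.33) being the largest fall.

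Many proteins exist as an isoform that is broad or immature and one that is typical of adult muscle, and 18 such pairs known from rodent muscle or heart were examined. In 15 pairs both genes passed the filter. The log2 ratio of the muscle form to the broad form was lower at P6 without overlap in 13 pairs, was higher in none, and overlapped in 2, Pygm to Pygb and Actc1 to Acta1. For elongation factor 1 alpha, the ratio of Eef1a2 to Eef1a1 was -0.21, -0.26 and -0.13 in the P6 libraries and 3.11, 3.49 and 3.43 in the adult control libraries. For the Polycomb methyltransferases, that of Ezh1 to Ezh2 was -0.09, -0.05 and -0.38 in the P6 libraries and 3.29, 2.92 and 2.75 in the adult control libraries. These ratios are of counts without a correction for gene length, so they are compared only between groups.

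In 6 pairs the broad form was higher and the muscle form lower, namely those of Eef1a1, Rpl3, Ezh2, Pfkp, Ckb and Itga5. Eef1a1 had 4313, 4868 and 4755 normalized counts in the P6 libraries, against 2156, 1617 and 1674 in the adult control libraries (log2 fold change 1.37, SE 0.14, adjusted p = 5.92e-05). Eef1a2 had 3725, 4079 and 4335 normalized counts in the P6 libraries, against 18612, 18178 and 18016 in the adult control libraries (log2 fold change -2.18, SE 0.13, adjusted p = 2.98e-06). Other pairs differed in which form was called. Hk1 (0.03) and Slc25a5 (0.05) did not pass while Hk2 (-2.15) and Slc25a4 (-1.66) were lower. Slc2a1 (-1.25) and Slc2a4 (-2.74), the basal and the insulin-responsive glucose transporters, were both lower, and so were Ldha (-0.70) and Ldhb (-1.63). The growth factors Igf2 (5.26) and Igf1 (2.04) were both higher. Hk1 was called higher under quantile normalization and total-count scaling, and Slc25a5 under the second. Calls of Ldha, Ckm and Pfkp were lost in 1 or 2 alternatives each, and that of Rpl3 when all 9 libraries shared a fit.

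**Figure D3:**
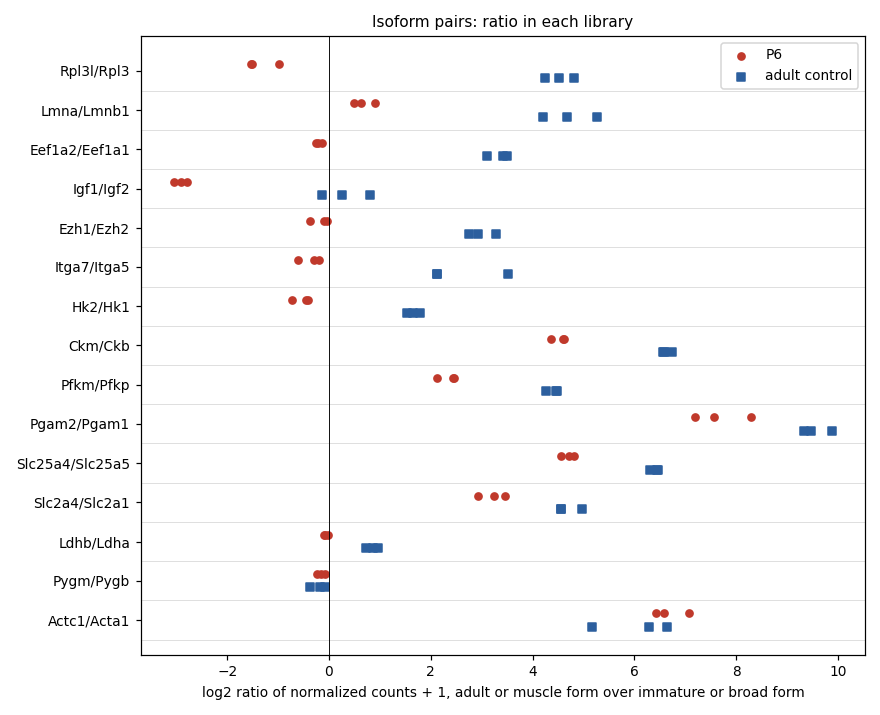
Log2 ratio of the adult or muscle form to the immature or broad form (x axis) for 15 isoform pairs (rows) in each P6 library (circles, upper) and adult control library (squares, lower). The P6 points lie left of the adult points in 13 pairs, and overlap with them for Pygm to Pygb and Actc1 to Acta1.

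Promoter windows from RefSeq (build GRCm38.p6, 250 bases before to 50 after the gene start) were at hand for 26 of the 30 members of these pairs. They were matched by symbol, and the gene counts themselves were made on mm9. The letters CG, the same on both strands, were counted in each window, and the richest window was taken where a gene had several. Windows of the broad forms held 12 to 31 CG (median 21), and those of the muscle forms 1 to 25 (median 7). Over all 32851 RefSeq windows, 94.6% held CG and the median was 7. That median is over every window, not the richest of each gene, so it is not like for like with those of the pairs. In 2 pairs the muscle form had the richer window, with 25 CG for Hk2 and 20 for Hk1, and 25 for Slc25a4 and 18 for Slc25a5. The 4 windows below belong to the elongation factor and creatine kinase pairs, whose broad form was higher and muscle form lower, with each CG in capitals:
Eef1a1 (chr9:78481675-78481974, minus strand): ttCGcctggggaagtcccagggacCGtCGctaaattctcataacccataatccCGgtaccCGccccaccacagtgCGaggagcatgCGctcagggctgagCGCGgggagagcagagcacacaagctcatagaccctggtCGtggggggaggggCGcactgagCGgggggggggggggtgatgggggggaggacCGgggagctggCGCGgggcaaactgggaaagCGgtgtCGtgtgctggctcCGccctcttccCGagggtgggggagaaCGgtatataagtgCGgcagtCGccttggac
Eef1a2 (chr2:181156966-181157265, minus strand): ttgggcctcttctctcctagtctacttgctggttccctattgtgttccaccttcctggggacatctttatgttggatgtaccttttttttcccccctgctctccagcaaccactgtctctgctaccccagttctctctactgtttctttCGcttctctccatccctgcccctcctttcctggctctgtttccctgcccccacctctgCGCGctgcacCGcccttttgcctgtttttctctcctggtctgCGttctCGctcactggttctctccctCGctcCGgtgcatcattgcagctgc
Ckb (chr12:111672289-111672588, minus strand): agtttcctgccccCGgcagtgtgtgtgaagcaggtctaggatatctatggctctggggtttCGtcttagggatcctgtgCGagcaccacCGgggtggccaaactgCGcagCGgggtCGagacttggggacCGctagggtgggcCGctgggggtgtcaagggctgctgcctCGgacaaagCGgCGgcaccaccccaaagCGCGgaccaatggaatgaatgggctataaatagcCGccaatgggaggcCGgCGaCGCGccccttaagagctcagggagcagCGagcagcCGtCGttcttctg
Ckm (chr7:19410844-19411143, plus strand): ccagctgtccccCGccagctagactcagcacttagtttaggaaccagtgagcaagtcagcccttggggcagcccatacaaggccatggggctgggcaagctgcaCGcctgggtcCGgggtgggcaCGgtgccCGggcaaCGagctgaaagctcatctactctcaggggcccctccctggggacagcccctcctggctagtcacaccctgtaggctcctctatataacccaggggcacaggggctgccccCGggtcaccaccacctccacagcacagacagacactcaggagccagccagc
The Eef1a1 and Ckb windows each hold 22 CG, and those of Eef1a2 and Ckm hold 8 and 7. The count is a description of these letters and was set against no test.

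Cell surface genes that join cells were more often higher than lower at P6. Of 75 connexin, cadherin, claudin and desmosome genes, 47 were higher and 7 lower [55 and 4] (median 1.05). Among the 47 were 22 gamma protocadherins, with a median of 2.11, so the count and the family median rest in large part on 1 group of related genes. Without the 5 genes that passed the filter through P6 alone, 42 of 70 were higher, with a median of 0.94. Pcdh17, a non-clustered protocadherin, had 2090.1, 1723 and 1674 normalized counts in the P6 libraries, against 126, 171 and 132 in the adult control libraries (log2 fold change 3.67, SE 0.16, adjusted p = 1.13e-06). All 22 gamma protocadherins tested were higher, by 0.99 to 3.11 on the log2 scale, among them Pcdhga8 (2.47) and Pcdhgc4 (3.08), but their transcripts share constant exons, so their reads are not independent. Dsp, desmoplakin of the desmosome, was lower (-1.09), and Gja1, connexin 43, did not pass (0.03, adjusted p = 0.891). Cdh19, also a marker of glia, was lower (-3.27), and the 4 glial markers summed to 96.5 to 115 normalized counts at P6 and 196 to 380.1 in adult controls.

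Of 57 axon guidance ligands and receptors, which also guide vessels and cardiac cells, 34 were higher and 4 lower (median 0.74; 7 lower without adult control library 1). Sema5a, a transmembrane semaphorin, had 1068, 1168 and 1099 normalized counts in the P6 libraries, against 109, 227 and 248 in the adult control libraries (log2 fold change 2.59, SE 0.28, adjusted p = 6.9e-05), and the vascular receptors Plxnd1 (1.89) and Unc5b (1.65) and the Slit receptor Robo1 (2.20) were higher. Epha4 was lower (-1.57). Of 25 Notch pathway genes, 20 were higher and 0 lower (median 0.99; 13 and 10 higher without P6 libraries 1 and 2), among them Notch1 (1.29), Hey2 (1.68) and the atypical ligand Dlk1 (6.37). Of 46 TGF-beta, BMP and activin genes, 24 were higher and 3 lower (median 0.55; 9 lower without adult control library 1), with Bmp7 at 2.68, Inhba at 3.40 and Fstl1 at 1.94. Over the same libraries the 6 endothelial markers summed to 19056 to 22062 normalized counts at P6 and 10005 to 14548 in adult controls, the 6 fibroblast markers to 45729 to 57213 normalized counts at P6 and 11906 to 15927 in adult controls and the 6 epicardial markers to 719.6 to 942 normalized counts at P6 and 183 to 203 in adult controls. The part of these cell types in the junction, guidance, Notch and TGF-beta results was not tested.

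Of 23 integrin genes, 12 were higher and 6 lower (median 0.65). Itga5, the fibronectin receptor chain, was higher (1.78), and Itga7, the laminin receptor chain of muscle, was lower (-1.17). Dystrophin complex and costamere genes divided, 10 of 35 being higher and 15 lower [15 and 8]. The sarcoglycans Sgca (-1.78), Sgcb (-1.85) and Sgcd (-1.34) were lower, while Sntb1, a syntrophin, had 721, 702 and 792 normalized counts in the P6 libraries, against 54.2, 52.6 and 46.8 in the adult control libraries (log2 fold change 3.83, SE 0.14, adjusted p = 4.85e-07). The focal adhesion genes Zyx (1.55) and Pxn (0.96) were higher.

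Receptors and their signalling partners included large changes in both directions within families. Of 56 receptors for amines, peptides and purines, 17 were higher and 20 lower [23 and 11] (13 lower without adult control library 3). Adra1a, the alpha-1A adrenergic receptor, had 26.0, 20.2 and 28.2 normalized counts in the P6 libraries, against 571, 519 and 779.8 in the adult control libraries (log2 fold change -4.59, SE 0.21, adjusted p = 1.13e-06). Lpar3, a receptor of lysophosphatidic acid, had 260.4, 262 and 345 normalized counts in the P6 libraries, against 13.3, 13.1 and 10.8 in the adult control libraries (log2 fold change 4.43, SE 0.20, adjusted p = 1.17e-06). The groups were far apart in opposite directions. The muscarinic receptor Chrm2 (-2.09) and the purine receptor P2ry1 (-3.09) were lower, the apelin receptor Aplnr was higher (2.22), and the beta-1 adrenergic receptor Adrb1 did not pass (0.41, adjusted p = 0.0866).

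Among 51 cyclic nucleotide enzymes and anchors, 14 were higher and 15 lower [23 and 8]. The main cardiac adenylyl cyclases Adcy5 (0.14) and Adcy6 (-0.09) did not pass, Adcy1 (-1.95) was lower and the kinase anchor Akap12 (1.35) was higher. Of 43 G protein and RGS genes, 16 were higher and 12 lower [20 and 7] (7 lower without adult control library 3), with Gnai1 at 1.63 and Gnb3 at -2.33. Of 57 MAP kinase and dual-specificity phosphatase genes, 19 were higher and 18 lower [28 and 8], with Mapk7 at 1.88 and Mapkapk2 at -1.50. Of 50 Rab GTPases, 11 were higher and 19 lower [16 and 7] (median -0.24, 0.19 under total-count scaling; 7 higher without P6 library 1 or 2), with Rab28 at -1.89 and Rab13 at 1.78.

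Among growth factor families, 8 of 19 genes of the IGF axis were higher and 5 lower, with the receptor Igf1r (1.13) and the adaptor Grb10 (1.62) higher and Grb14, an inhibitor of the insulin receptor, lower (-1.54). Without the 1 gene that passed the filter through P6 alone, 7 of 18 were higher, and the family median was 0.25 instead of 0.57. Of 37 FGF, VEGF, angiopoietin and PDGF genes, 10 were higher and 12 lower [17 and 7] (6, 5 and 6 higher without P6 libraries 1, 2 and 3). Angptl4, an inhibitor of lipoprotein lipase (3.88), and Fgfr2 (3.50) were higher, and Angpt1 (-1.98) and Fgf1 (-1.56) lower.

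Ion channel and transporter families had members far apart in both directions. Of 43 potassium channel subunits, 14 were higher and 16 lower (8, 8 and 9 higher without P6 libraries 1, 2 and 3), and of 52 sodium, calcium, chloride and TRP channel genes, 17 were higher and 18 lower [25 and 10]. Kcnv2 (-6.57) and Scn4b (-7.88) were the largest falls and Kcne1 (5.004) the largest rise in these 2 families among members averaging at least 100 counts in 1 group. The T-type calcium channel genes Cacna1g (2.44) and Cacna1h (2.31) were higher, while the skeletal muscle channel genes Cacna1s (-4.43) and Scn4a (-2.67) were lower. The 6 skeletal muscle markers summed to 33.2 to 43.1 normalized counts at P6 and 108 to 281 in adult controls, with Pvalb at 0 at P6; their part was not tested. Of 16 pump genes, 3 were higher and 7 lower [4 and 3]. Atp2a2, the calcium pump of the sarcoplasmic reticulum, was lower, at 78956 ± 3961 normalized counts at P6 and 290359 ± 17973 in adult controls (log2 fold change -1.88, SE 0.24, adjusted p = 0.000176).

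Solute carriers of amino acids had 12 of 33 higher and 7 lower [18 and 3]. Members of the same group of neutral amino acid carriers differed, with Slc38a4 (2.91) and Slc38a1 (2.10) higher and Slc38a3 lower, at 176 ± 30.4 normalized counts at P6 and 1115 ± 93.7 in adult controls (log2 fold change -2.67, SE 0.16, adjusted p = 3.16e-06). Sugar and monocarboxylate carriers had 6 of 19 higher and 8 lower, with the lactate carriers Slc16a1 (-1.88) lower and Slc16a3 (1.71) higher. Carriers of ions and metals had 14 of 49 higher and 16 lower [28 and 9], and mitochondrial carriers 9 of 39 higher and 20 lower [15 and 12] (5 higher without P6 library 2 or 3), with Slc4a1, the anion exchanger of red cells, at 2.74 and Slc25a29 at -3.23. ABC transporters were more often lower, 23 of 37 against 4 higher (median -0.65, 12 and 8 under total-count scaling). Abcb4, a phospholipid floppase best known from liver, had 48.0, 46.2 and 55.0 normalized counts in the P6 libraries, against 592, 667 and 809 in the adult control libraries (log2 fold change -3.76, SE 0.16, adjusted p = 1.13e-06). Of 5 aquaporins, Aqp4 (1.64) was higher and Aqp1 (-1.92) and Aqp8 (-1.82) were lower.

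Immune and defence genes were more often lower than higher at P6, together with macrophage markers. Of 20 complement genes, 14 were lower and 1 higher (median -1.62, 13 and 4 under total-count scaling). C1qa (-2.54) and C3 (-1.92) were lower, and so was C4b, which had 5.48, 18.8 and 8.91 normalized counts in the P6 libraries, against 127, 93.0 and 116 in the adult control libraries (log2 fold change -3.37, SE 0.39, adjusted p = 0.000105). Of 58 interferon response genes, 34 were lower and 3 higher (median -0.71, 20 and 10 under total-count scaling). Ifi205, which passed the filter through adult controls alone, had 1 read at P6 and 436 in adult controls. This gives a P6 to adult ratio of 0.00392 (exact 95% interval of the pooled counts 9.9e-05 to 0.0219). Its adult control libraries had 47.5, 84.9 and 212 normalized counts, a spread that the interval leaves out. Ifit3 (-3.01) and Irf7 (-1.36) were lower, and Irf8 was higher (0.64), a call lost in 3 alternatives. Of 50 chemokine, interleukin and receptor genes, 11 were higher and 26 lower (median -0.74, 16 and 16 under total-count scaling; 7 higher without P6 library 2 or 3, 17 lower without adult control library 3). Cxcl14 had 0 reads at P6 and 381 in adult controls, so that, with 3 reads over the P6 group as the floor, it was at least 74.4-fold lower. Ccl6 (-4.48) and Il15 (-2.49) were lower, but the fractalkine receptor Cx3cr1 was higher (1.79). The 6 macrophage markers summed to 812 to 876 normalized counts at P6 and 2680.1 to 4208 in adult controls, and their part in these results was not tested.

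Of 12 serpin genes, 2 were higher and 8 lower [4 and 8] (median -1.11), with the collagen chaperone Serpinh1 higher (0.93). Of 18 S100 and annexin genes, 6 were higher and 6 lower [9 and 2] (3 lower without P6 library 3, 2 without adult control library 3). S100a1, the calcium sensor of cardiomyocytes, was lower, at 1084 ± 61.9 normalized counts at P6 and 5112 ± 1243 in adult controls (log2 fold change -2.21, SE 0.18, adjusted p = 1.58e-05), and Anxa2 was higher (0.94). The neutrophil genes S100a8 (2.81) and S100a9 (2.10) were higher, and the 6 granulocyte markers, which include both, summed to 53.5 to 218 normalized counts at P6 and 9.17 to 12.2 in adult controls, with Ngp, Camp and Retnlg at 0 in adult controls.

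Cytoskeletal families changed composition. Of 21 tubulin and gamma-tubulin complex genes, 9 were higher and 3 lower [14 and 2]. Tuba8, an alpha-tubulin enriched in striated muscle and testis, had 317, 319 and 263 normalized counts in the P6 libraries, against 2301, 2072 and 1981 in the adult control libraries (log2 fold change -2.82, SE 0.13, adjusted p = 1.17e-06). Tuba4a was also lower (-2.49), while Tubb5 (1.79) and Tubb2b (3.38) were higher. Of 54 kinesin and dynein genes, 29 were higher and 14 lower [33 and 5] (median 0.65; 8 to 9 lower without any 1 P6 library and 8 without adult control library 3). Without the 4 that passed the filter through P6 alone, 25 of 50 were higher, with a median of 0.32. Kif2c (5.27) and Kif11 (4.28), which act in mitosis, were higher, and Kif1c (-1.42) and Kif21a (-1.62) were lower. Of 39 unconventional myosin, actin and tropomyosin genes, 17 were higher and 10 lower, with Tmsb10 (3.19) and Acta2 (1.29) higher and the leiomodin Lmod2 (-2.38) and the tropomodulin Tmod4 (-3.36) lower. Tubulins and actins share long stretches of sequence, so their single values carry the same doubt as the ribosomal proteins.

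Among genes with no protein product, 8 of 12 small nucleolar RNA host genes were higher and 1 lower [10 and 0] (median 0.67; 5 higher without P6 library 2 or 3), led by Snhg17 (1.90), while of 31 small nucleolar and Cajal body RNAs themselves 3 were higher and 8 lower [6 and 5]. All 4 miRNA host genes tested were higher, with Mir143hg at 300.5 ± 27.9 normalized counts at P6 and 74.7 ± 28.5 in adult controls (log2 fold change 2.07, SE 0.28, adjusted p = 0.000277). Of 16 miRNA hairpin genes, 7 were higher and 1 lower [9 and 0], at low counts (3 higher without any 1 P6 library, and 3 of 11 higher without the 5 that passed the filter through P6 alone). Reads over a hairpin gene in such libraries can come from precursor or host transcripts, and the level of the mature miRNA was not measured. Mir208a, which lies in an intron of Myh6, had 52.1, 41.9 and 40.1 normalized counts in the P6 libraries, against 3.33, 4.04 and 4.32 in the adult control libraries. Mir126a, in an intron of the endothelial gene Egfl7, was at 1.69. Mir1a-1, which passed the filter through P6 alone, had 45 reads at P6 and 3 in adult controls. This gives a P6 to adult ratio of 25.6 (exact 95% interval of the pooled counts 8.22 to 129). Mature sequences of Mir208a, Mir126a and Mir1a-1 from RefSeq (GRCm38.p6) are given for identification, with the seed (bases 2 to 8) in capitals. The list may not be complete, as it holds only miR-1a-1-5p for Mir1a-1 and only miR-126a-3p for Mir126a. It does not show which mature sequence of a gene is the main product. Among the sequences listed, no 2 share a seed:
miR-208a-3p (gene Mir208a, chr14:54949072-54949093, minus strand): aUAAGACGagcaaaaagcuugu
miR-208a-5p (gene Mir208a, chr14:54949107-54949128, minus strand): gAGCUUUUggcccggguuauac
miR-126a-3p (gene Mir126a, chr2:26591402-26591423, plus strand): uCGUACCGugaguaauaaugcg
miR-1a-1-5p (gene Mir1a-1, chr2:180389057-180389079, plus strand): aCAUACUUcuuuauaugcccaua
Mir6236 did not pass, with 1149.9, 266 and 8663 normalized counts in the P6 libraries, against 3055, 16602 and 22784 in the adult control libraries, and the groups overlapped.

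Position and length in the genome were taken from GENCODE vM21 (GRCm38) by gene symbol, which matched 13283 of the 13398 genes; the counts were made on mm9, so spans are approximate. Longer protein-coding genes were more often higher at P6. Among genes spanning up to 5 kb, 24.8% were higher and 39.6% lower, and among those over 100 kb, 39.7% and 23.0%, with the 4 classes between in order. The median span was 30.9 kb for genes higher at P6, 20.9 kb for genes lower and 26.1 kb for the rest. Under total-count scaling both classes shifted, to 35.7% and 23.1% up to 5 kb and 59.8% and 13.7% over 100 kb. On the X chromosome, 38.7% of 457 genes were higher and 23.6% lower, against 26.8% to 37.3% and 29.5% to 35.2% over the 19 autosomes. The X values stood above the range for higher and below it for lower genes. P6 library 3, unlike the others, had Ddx3y (811) and little Xist (14.9), and the part of sex in the X values was not tested. Leaving out 1 P6 library, whichever it was, and applying the filter again gave 30.6% to 31.2% and 20.4% to 21.3% on the X. Over all genes tested in the same fits, 23.8% to 24.5% were higher and 27.5% to 28.2% lower.

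**Figure D4:**
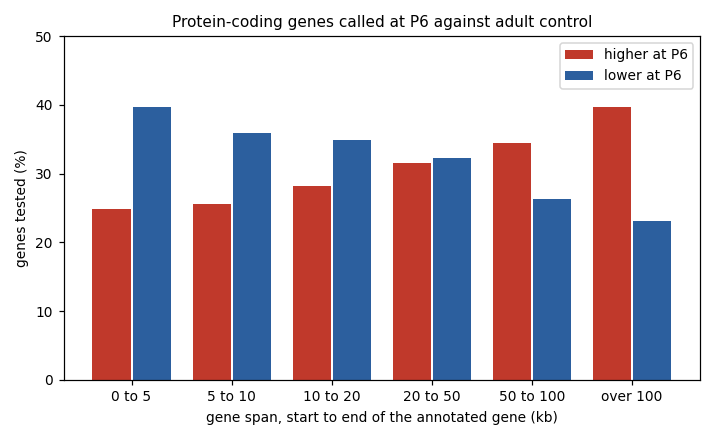
Percent of tested protein-coding genes higher (left bars) and lower (right bars) at P6, by annotated gene span in kb. The share higher climbs from 24.8% to 39.7% with span and the share lower declines from 39.6% to 23.0%.

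Outside the families and pairs, the 8 largest rises and the 8 largest falls were taken among genes averaging at least 1000 counts in 1 group. Art1, an arginine ADP-ribosyltransferase of muscle surfaces, had 72.6, 111 and 28.2 normalized counts in the P6 libraries, against 3756, 2462 and 2877 in the adult control libraries (log2 fold change -5.58, SE 0.42, adjusted p = 1.04e-05). Xdh, xanthine dehydrogenase (-4.94), Prune2 (-4.54), the flavin monooxygenase Fmo2 (-4.46), the muscle RING finger gene Trim54 (-4.44), Cd74, the invariant chain of antigen presentation (-4.53), Ces1d (-7.22) and 2310002L09Rik (-5.54) were lower. Among the rises, Nrk, a Nik-related kinase on the X chromosome, had 1073, 1022 and 995 normalized counts in the P6 libraries, against 13.3, 34.4 and 23.8 in the adult control libraries (log2 fold change 5.47, SE 0.29, adjusted p = 1.92e-06). Scd4, a stearoyl-CoA desaturase known from the heart, was at 5.36, and the imprinted genes H19 (5.41), Mest (5.25) and Plagl1 (4.87) were higher, as were Tnni1 (10.88), Fbn2 (7.10) and Mki67 (4.79). A call and no overlap between the groups were conditions for choosing these 16 genes. Over all genes tested, the groups did not overlap in 70.3%.

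The 17 families whose median changed sign with the scaling, and for which no direction is stated, had medians between -0.42 and -0.02 under the deposited normalization. They were the cytosolic ribosomal proteins; translation initiation and elongation factors; potassium channel subunits; sodium pump, calcium pumps and Fxyd proteins; solute carriers of sugars and monocarboxylates; mitochondrial carriers Slc25; aquaporins; dystrophin and costamere genes; cyclic nucleotide enzymes and anchors; amine, peptide and purine receptors; FGF, VEGF, angiopoietin and PDGF genes; MAP kinases and dual-specificity phosphatases; Rab GTPases; S100 proteins and annexins; acyl-CoA synthetases and thioesterases; cytochrome P450 genes; and small nucleolar and Cajal body RNAs. The median also turned negative in other settings for the sodium, calcium, chloride and TRP channels (0.15; -0.11 under quantile normalization and -0.15 without P6 library 1), the solute carriers of ions and metals (0.01; -0.09 with TMM factors), the G proteins and RGS proteins (0.19; -0.05 under quantile normalization), the serine, one-carbon and nucleotide synthesis enzymes (0.12; -0.02 under quantile normalization), and, with the filter at 50 normalized counts, the IGF axis (0.57; -0.11) and the miRNA hairpin genes (0.85; -0.72). The shift applied to single genes too, so that small falls named above can lose their call or their sign under total-count scaling.

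**Figure D5:**
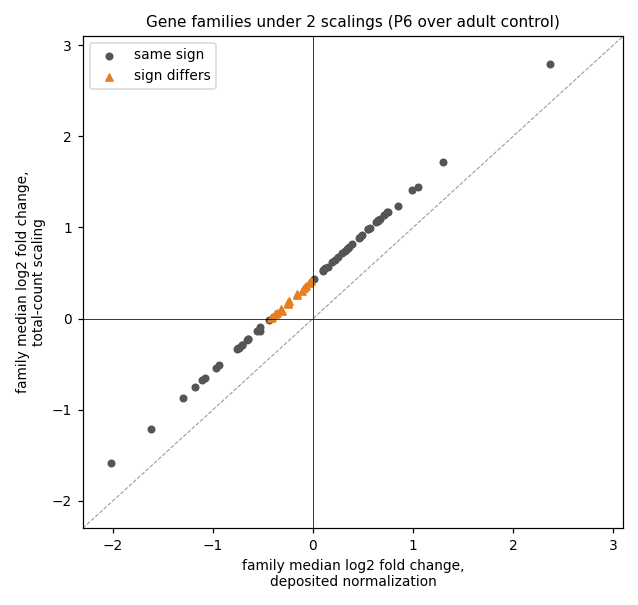
Median log2 fold change of 69 families under the deposited normalization (x axis) and under total-count scaling (y axis), with the dashed line at equality. All points lie above the line by 0.39 to 0.43, and the triangles mark 17 families whose median changes sign.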

How the data were processed

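RNA of mouse cardiac ventricle was sequenced in 9 libraries, of which 6 enter here. Per the submitters' processing notes, reads were aligned with Bowtie2 2.0 to mm9 and DESeq2 was used, and per the file headers reads were counted with htseq-count; the gene annotation and strand setting are not given in the sources used here. The deposited table holds a size-factor-normalized count per gene, a depth-scaled signal, as the authors made it. For P6 the authors also deposited raw read counts. Dividing each library's values by its smallest step gave whole reads for 100% of values (tolerance 0.001), equal to the deposited P6 counts in all 24391 genes. Of the table's names, 27 are dates made by a spreadsheet. The table has 1 further column, with no name and mostly empty lookups, which was not used.

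Values were tested as log2(normalized count + 1) with limma 3.58.1 in R 4.3.3 (empirical Bayes with intensity trend, two-sided, Benjamini-Hochberg adjusted p under 0.05 over all 13398 genes), the 3 P6 libraries against the 3 adult control libraries. The procedure was tested on simulated data with far fewer changed genes than were called here, so that test does not address the choice of scaling. An exact permutation test of 3 against 3 cannot go below 0.1 and was not used. Intervals and floors pool the reads of a group and cover counting error only, not the spread between libraries. On the recovered reads, edgeR 4.0.16 called 3904 genes higher and 4453 lower, and DESeq2 1.42.0 called 3947 and 4099. Replicates of 1 group differed by more than counting error (chi-square per degree of freedom 5.33 to 25.9 at P6 and 28.9 to 141 in adult controls), so none was counted as a duplicate. Families are symbol patterns or lists, and a gene can be in several. Members and lists were chosen with earlier results of these data known. The 4 lists of noncoding RNAs were set after their values were seen.

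Genes were named by rule: in each family the called member with the largest rise and fall among those averaging at least 100 normalized counts in 1 group and not overlapping, both members of each isoform pair, and the 8 largest rises and falls elsewhere among genes averaging at least 1000. The last set was also limited to called genes whose groups did not overlap. Other genes named were chosen after their values were seen. Some genes that meet the rule, and 1 family, are counted but not reported here. Fits with other scalings, filters, pseudocounts, tools, a replicate block and each library left out were run as alternatives. Promoter windows matched 75.1% of tested genes by symbol, so no promoter count over all tested genes is given.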

Additional observations from a re-analysis of the deposited data

How the results depend on the processing

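Scaling each library to its total reads gave 6389 genes higher and 2316 lower, and requiring a log2 fold change of at least 1 gave 2375 and 2069. Across the other settings the counts stayed within 1.5 times of 4182 and 4198. Leaving out 1 library gave 3079 to 4579 genes higher and 3563 to 4450 lower, with the fewest higher when P6 library 1 was left out. The filter was applied again in these fits, and 12949 genes were tested without P6 library 1, against 13398 in the reported fit. Of 2622 family counts compared over the alternative settings, 289 moved by over 1.5 times, 77 of them under the fold change bound and 67 under total-count scaling; the cause was not tested.

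Of 166 named genes tested, 150 kept direction and call in each of the 19 settings that tested them. Named genes that passed the filter through 1 group alone were absent from fits that left out a library of that group. Rps4l, Hnrnpc, Brd7, Atp1b2, Irf8, Snord22, Rpl3, Pfkp, Ldha and Ckm lost a call in at least 1. Signs turned under total-count scaling for Hnrnpc (0.13), Lmna (0.24) and Ampd3 (0.26), and under quantile normalization for Lmna (0.063) and Actc1 (0.17). Signs also turned for Hk1 with TMM factors (-0.065) and edgeR (-0.024), and for Slc25a5 with TMM factors (-0.046) and edgeR (-0.00071). Calls were gained by Hk1 under quantile normalization (0.39) and total-count scaling (0.46), and by Slc25a5 (0.48) and Pgam1 (1.06) under total-count scaling. With 1 library left out, Hk1 ranged from -0.078 to 0.109 and Slc25a5 from -0.040 to 0.198. Lmna, Ampd3, Hk1 and Slc25a5 were not called in the reported fit.

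The replicate numbers of the labels did not pair the libraries: deviations from the group means correlated at -0.08, -0.09 and 0.06 between libraries of the same number. With the replicate number as a block, 3976 genes were higher and 3953 lower, and among named genes only Hnrnpc lost its call. P6 libraries held fewer reads than adult control libraries, which limits what can be said of low genes at P6.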
